A study of Rattus norvegicus with 8 samples.

Results

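Hepatokines are hormones that the liver releases into blood. The 9 genes described here encode fibroblast growth factor 21 (Fgf21), follistatin (Fst), the activin subunits beta A, B, C and E (Inhba, Inhbb, Inhbc and Inhbe), growth differentiation factor 15 (Gdf15) and the angiopoietin-like proteins 4 and 6 (Angptl4 and Angptl6). They were taken by name from the probes of the array, out of 26903 genes in all, and were selected on the diet difference of their array signals, which was known from these same data. All 9 had a probe, 11 probes in total, and all 9 were among the 14993 genes bright enough to test. Their diet differences are therefore given as a description, with no p-value. The livers came from 8 Wistar rats aged 21 days. In the control group (n = 4) the dams ate a standard diet, and in the deficient group (n = 4) a diet free of vitamin B12 and folates, begun 1 month ahead of pregnancy and kept up until the pups were weaned. Control 1, deficient 2 and deficient 4 were male and the other 5 animals female. The litters are not given in the sources used here, so some replicates may be littermates, and a p-value here reflects how these 8 animals vary. No genotype or drug was part of the design, and the pups met the diet through their dams.

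FGF21 is secreted during fasting, amino acid shortage and mitochondrial stress, and acts through FGF receptors with beta-klotho (Klb) as co-receptor. Activins are dimers of inhibin beta subunits that signal through activin receptors and SMAD proteins. Follistatin binds activins and keeps them from their receptors, and hepatocytes raise it when glucagon is high relative to insulin. GDF15 is a stress hormone that acts on the hindbrain, ANGPTL4 inhibits lipoprotein lipase, and ANGPTL6 is a liver-secreted relative of it. The beta C and beta E subunits are made mostly by hepatocytes.

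Each array held 1 control and 1 deficient animal in different dyes. Array 1 carried control 1 and deficient 3, array 2 control 3 and deficient 1, array 3 control 2 and deficient 4, and array 4 control 4 and deficient 2. The deficient animal was in Cy5 on arrays 2 and 4 and in Cy3 on arrays 1 and 3. Median spot signals were 152.5 to 299 over backgrounds of 33 to 58, and no spot was saturated. Levels below are log2 normalized intensities, and differences are deficient minus control on that log2 scale, with the SE of a limma fit over 4 animals in each group. This SE is moderated with the variances of all genes, after a dye term and with 1 array correlation for all genes. It does not measure the spread between animals or between within-array differences, and can be smaller than that spread implies. Levels of different probes cannot be set against each other. Of all genes tested, 1682 (11.2%) passed limma's Benjamini-Hochberg adjusted threshold of 0.05, 690 (4.6%) higher and 992 (6.62%) lower in deficient livers. That count was 389 without control 3, 519 without deficient 4, 597 without control 2, 699 without control 1, 1081 without control 4 and 3589 without deficient 2. All 5 hepatocyte markers looked at (Alb, Apoa1, Ttr, Serpina1 and Tf) were well above background in all 8 livers. Their summed level, the log2 of the sum of their linear intensities, was 19.9 to 20.3 in controls and 19.2 to 19.8 in deficient livers. Its part in the results below was not tested. Summed levels of other markers were made in the same way, and the brightest markers weigh most in them. Deficient 3 stood apart for skeletal muscle transcripts (Acta1, Ckm, Mylpf, Tnnt3, Myh4, Tnni2 and Pvalb), with a summed level of 13.1 against 9.76 to 10.3 in the other 7 livers. Results that move without this library are given both ways. In whole liver RNA, fewer cells of a type and less RNA per cell cannot be told apart.

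The sequences that carry the comparison are the probe of each gene that stood highest in deficient livers and the stretches of promoter that were searched for stress-response motifs. The Fgf21 probe covers 60 bases but spans 580 bases of the genome (rn4 chr1:96082751-96083330, minus strand, positions as the files give them), so its bases do not lie in 1 block of the genome. The follistatin probe lies at rn4 chr2:46542246-46542305, minus strand, and its last 3 bases, in capitals, are a stop triplet that ends a reading frame otherwise open over the probe.
Fgf21 probe: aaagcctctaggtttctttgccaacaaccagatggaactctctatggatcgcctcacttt
Fst probe: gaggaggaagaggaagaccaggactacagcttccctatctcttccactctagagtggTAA
The 250 bases upstream of the RefSeq start of Fgf21 (GRCr8 chr1:105221377-105221626, minus strand) and of Inhbe (GRCr8 chr7:65064520-65064769, minus strand) each held 1 match to TGATGNAA, the C/EBP-ATF response element bound by ATF4 and its partners. Both matches read TTGCATCA, the element on the opposite strand. Capitals mark the motif matches.
Fgf21 upstream: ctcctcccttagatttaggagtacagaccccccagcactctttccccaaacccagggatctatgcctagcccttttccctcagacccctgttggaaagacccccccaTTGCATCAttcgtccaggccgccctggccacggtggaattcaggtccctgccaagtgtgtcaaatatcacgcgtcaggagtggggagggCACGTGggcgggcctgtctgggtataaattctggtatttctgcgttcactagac
Inhbe upstream: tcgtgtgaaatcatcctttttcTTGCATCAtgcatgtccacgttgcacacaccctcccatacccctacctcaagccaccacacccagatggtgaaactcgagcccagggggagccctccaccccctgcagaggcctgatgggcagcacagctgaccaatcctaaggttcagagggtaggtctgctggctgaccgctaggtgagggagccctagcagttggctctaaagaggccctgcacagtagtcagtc
The match began at position -143 in Fgf21 and at -228 in Inhbe, counted back from the transcript start. The element occurred on either strand in 898 of 27457 rat promoter windows of that length (3.27%). Fgf21 also held CACGTG, an E-box, at -54. That motif was in 5.73% of windows and overlapped none of the others. The remaining motifs searched, on both strands, were TGACGTCA (the cAMP response element, 1.68% of windows), GTAAACA (a forkhead site, 3.29%) and the direct repeat bound by PPAR-RXR (0.051%). RefSeq gave 9 windows for the genes described here, 2 of them for Gdf15. The windows of the genes other than Fgf21 and Inhbe held none of these letters, which says nothing of the factors. Fst had no entry.

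In livers of deficient pups Fgf21, Fst and Inhbe were higher, by 4.97-fold, 5.61-fold and 1.5-fold. Of the 9, the other 6 did not pass the threshold in either direction. The 3 of 9 that passed stand beside the 11.2% of all genes, and since diet differences chose the genes nothing is read from the share. Counts of passes over alternative settings, given below, are no test either, since they refit the data that chose the genes. They describe only how far a value depends on the processing and on single livers or arrays. On the brightest probe of each gene, Fgf21 was the single gene of the 9 whose groups did not overlap. Groups did not overlap for 1718 of all genes tested (11.5%), 829 higher (5.53%) and 889 lower (5.93%). Fitted differences on the brightest probes were positive for 4 genes and negative for 5. The dimmer Inhbb probe, described below, went the other way from the brighter, with groups that did not overlap.

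**Figure D1:**
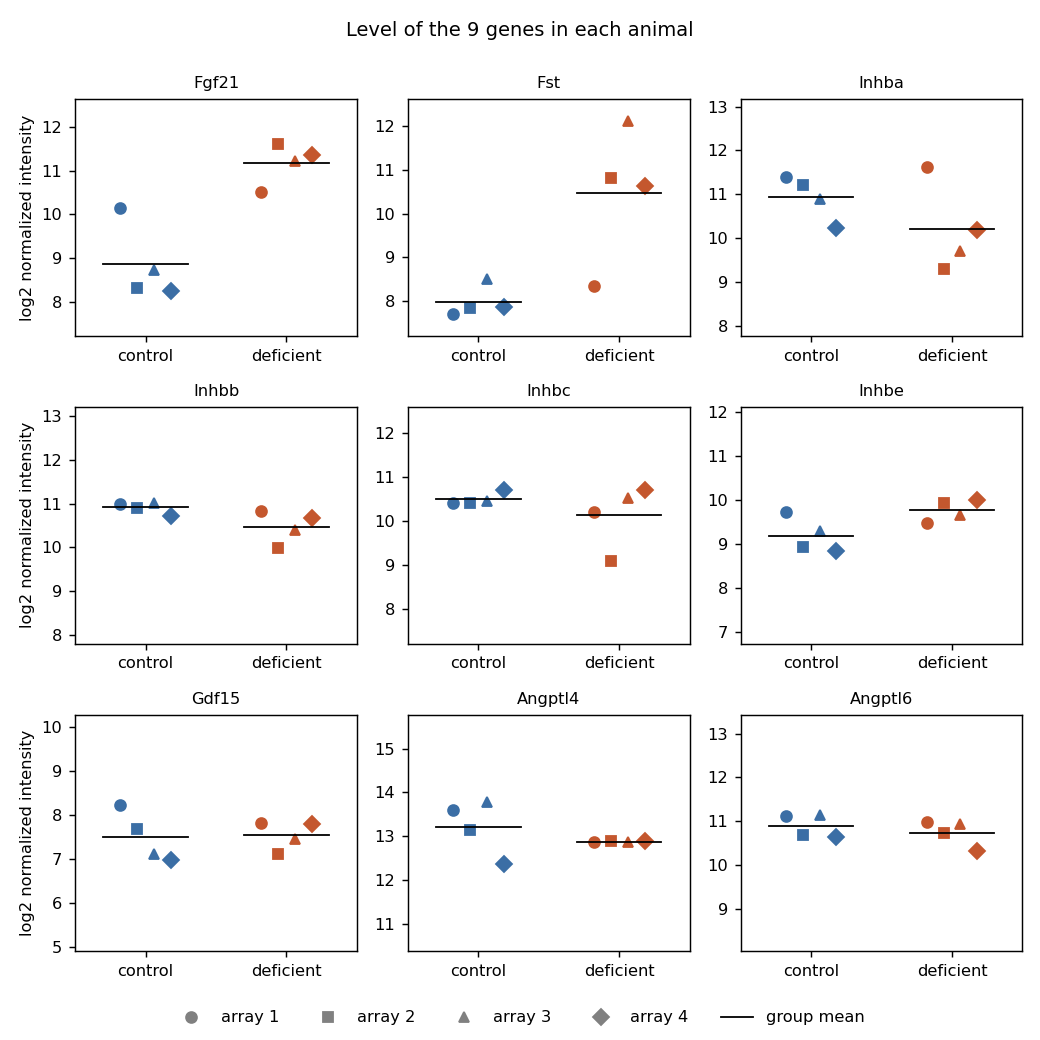
Each panel plots the log2 normalized intensity of 1 gene (vertical axis, same span in every panel) in the 4 control and 4 deficient livers, with the shape of a point giving its array and the line the group mean. Fgf21 was 8.24 to 10.14 in controls and 10.5 to 11.61 in deficient livers, Fst had 1 deficient liver at control level, and the 4 deficient points of Angptl4 lay at 12.86 to 12.9.

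Fgf21 was measured on 10 spots of each array. The log2 levels in controls 1 to 4 were 10.14, 8.72, 8.32 and 8.24, and those in deficient animals 1 to 4 were 11.61, 11.36, 10.5 and 11.21. The lowest deficient liver, deficient 3, was above the highest control, the male control 1, and these shared array 1. Before correction and normalization their spot signals overlapped, at 863.6 to 1303 in deficient 3 (Cy3) and 943.5 to 1413 in control 1 (Cy5). The median signals of all spots in these samples were 152.5 and 205.2. The order of these livers thus rests on the background correction and the normalization between dyes. Group means were 8.86 ± 0.88 and 11.17 ± 0.47 (SD, n = 4), a difference of 2.31 ± 0.28 (SE). Over the 10 spots of a sample the SD of log2 signal was 0.139 to 0.195, less than the spread between animals. Within arrays 1 to 4 the difference was 0.36, 3.28, 2.49 and 3.12. It was positive on every array and smallest on array 1, in which both a high control and the lowest deficient liver lay. The gene passed under each of 24 alternative settings, between 1.78 without array 3 and 2.84 without array 1. Without deficient 3, the library with muscle transcripts, the difference was 2.56.

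Fst was as low in 1 deficient liver as in controls. Controls 1 to 4 had log2 levels of 7.71, 8.5, 7.86 and 7.88, a narrow range. Deficient animals 1 to 4 had 10.81, 10.64, 8.34 and 12.11, so that deficient 3 lay within the control range and the other 3 lay above it. Group means were 7.99 ± 0.35 and 10.47 ± 1.56 (SD, n = 4), and the difference was 2.49 ± 0.51 (SE). The within-array differences of 0.64, 2.95, 3.61 and 2.76 were all positive. Without deficient 3 the difference was 3.25 ± 0.24, and without deficient 4, the highest liver, it was 1.76 ± 0.28. The gene passed under 17 of 24 alternatives. It did not pass without control 1, control 2 or control 3, without array 2 or array 3, on within-array ratios alone, or without the array as a block, and the difference stayed at 1.75 or above in all 24.

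**Figure D2:**
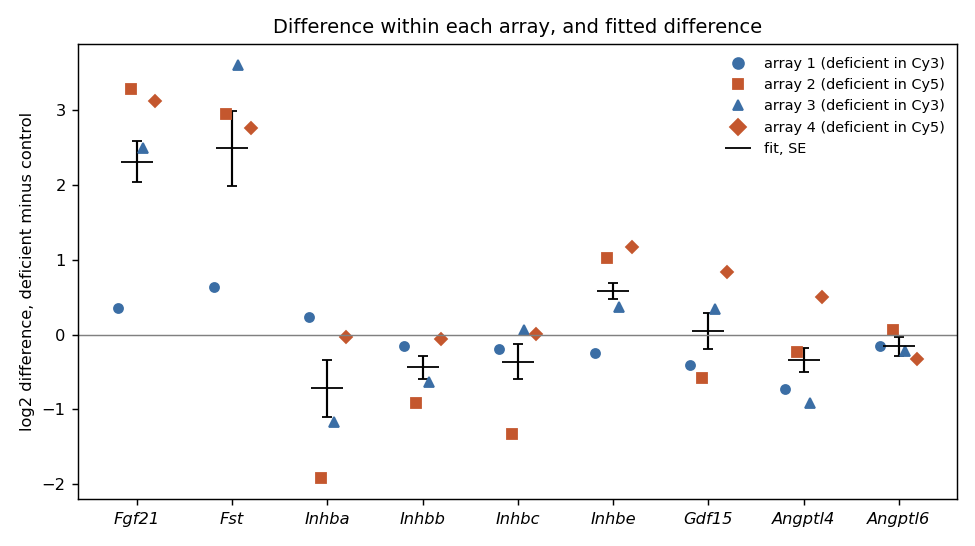
Points are the deficient minus control difference in log2 normalized intensity within each of the 4 arrays (vertical axis) for the 9 genes, coloured by the dye of the deficient sample, and bars are the fitted difference with its SE. Fgf21 and Fst were positive on all 4 arrays and lowest on array 1 (0.36 and 0.64), Inhbe was negative on array 1 and positive on the others, and array 2 gave the lowest values of Inhba (-1.92) and Inhbc (-1.33).

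Among the activin beta subunit genes Inhbe, the beta E subunit, was higher in deficient livers, while the brightest probes of Inhba, Inhbb and Inhbc gave negative differences that did not pass. The difference between Inhbe and the other subunits was not tested. Inhbc and Inhbe are neighbours on chromosome 7 with no other gene between them in the RefSeq table. Their probes lie at rn4 chr7:67316137-67316196 (Inhbc) and rn4 chr7:67308714-67308773 (the brighter of 2 Inhbe probes), both minus strand. They are shown because the 2 genes are alike there. Capitals mark bases that are the same when the 2 are aligned.
Inhbc probe: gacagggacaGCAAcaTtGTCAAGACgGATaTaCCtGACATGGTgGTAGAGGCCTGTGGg
Inhbe probe: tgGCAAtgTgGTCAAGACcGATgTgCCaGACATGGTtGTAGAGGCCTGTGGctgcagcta
Over the 52 bases that overlap, 41 were identical (78.8%), with a longest shared run of 14. The fitted differences had opposite signs, but within arrays the signs were opposite on array 2 and the same on arrays 1, 3 and 4 (-0.20, 0.06 and 0.01 for Inhbc).

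Inhbe read 9.72, 9.29, 8.92 and 8.84 in controls 1 to 4 on its brighter probe and 9.94, 10.01, 9.48 and 9.66 in deficient animals 1 to 4. The groups overlapped through control 1, which was above deficient 3 and deficient 4. Means were 9.19 ± 0.40 and 9.77 ± 0.25 (SD, n = 4), and the difference was 0.58 ± 0.10 (SE). The dimmer Inhbe probe (rn4 chr7:67308064-67308123) went the same way, with 9.13, 8.73, 8.22 and 8.11 in controls and 9.78, 9.83, 9.01 and 9.3 in deficient livers, a difference of 0.93 ± 0.11 or 1.91-fold. On both probes the within-array difference was larger where the deficient animal was in Cy5. On arrays 2 and 4, with it in Cy5, the brighter probe gave 1.02 and 1.17 and the dimmer 1.55 and 1.73. On arrays 1 and 3, with it in Cy3, the brighter gave -0.24 and 0.37 and the dimmer -0.12 and 0.56. With so few arrays, dye and animals cannot be told apart here. Without the dye term the SE on the brighter probe was 0.20. Inhbe passed under 19 of 24 alternatives. It did not pass without control 3, deficient 4 or array 3, on within-array ratios, or without the dye term, with differences of 0.43 to 0.76 over all 24.

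Inhbb, the beta B subunit, had 2 probes that disagreed. The brighter probe (rn4 chr13:32172165-32172224) read 11.0, 11.02, 10.9 and 10.72 in controls 1 to 4 and 9.99, 10.67, 10.84 and 10.39 in deficient animals 1 to 4, a difference of -0.44 ± 0.15 that did not pass. The dimmer probe (rn4 chr13:32171058-32171117) read 8.94, 10.1, 9.76 and 9.28 in controls and 10.3, 10.27, 10.38 and 10.4 in deficient livers, a difference of 0.82 ± 0.19 or 1.76-fold with groups that did not overlap. Deficient livers were thus lower on 1 probe and higher on the other. Under 13 alternatives applied to single probes the brighter stayed between -0.56 and -0.28 and the dimmer between 0.63 and 1.01. The closeness of the deficient livers on the dimmer probe depended on scaling between arrays. The SD there was 0.06 in deficient livers and 0.51 in controls. It was 0.32 and 0.55 when values were normalized within arrays only. The mean of the 2 probes gave 0.19 ± 0.15, so no direction is given for the gene. The brighter probe passed without deficient 2 (-0.59) or without array 4 (-0.65).

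**Figure D3:**
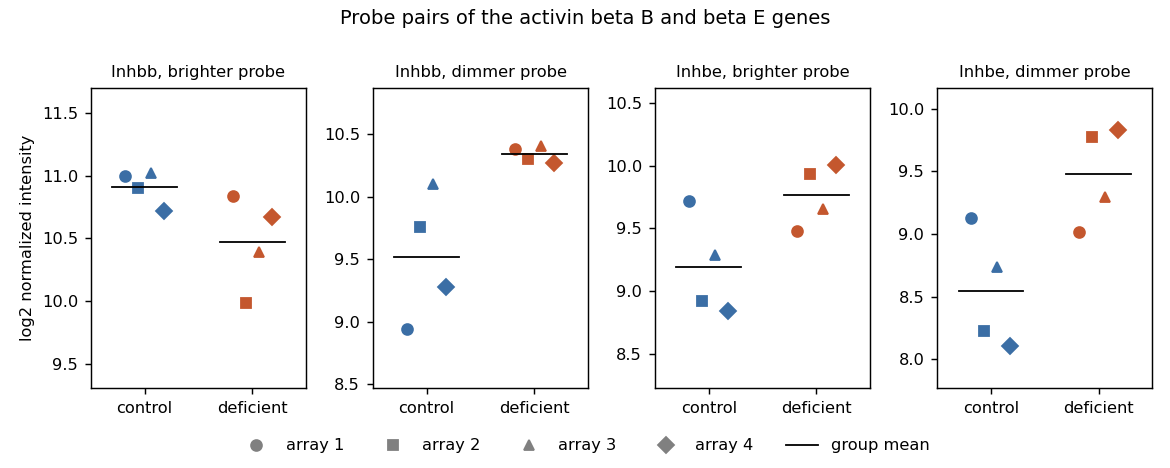
Log2 normalized intensity (vertical axis, same span in each panel, different origin) of both probes of Inhbb and of Inhbe in each liver, with array shown by shape and the group mean as a line. The Inhbb probes differ in direction, with deficient livers at 9.99 to 10.84 on the brighter and 10.27 to 10.4 on the dimmer, whereas both Inhbe probes are higher in deficient livers on average.

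Inhba, the beta A subunit and the source of activin A, varied widely in deficient livers. Controls 1 to 4 had log2 levels of 11.4, 10.89, 11.22 and 10.22, and deficient animals 1 to 4 had 9.31, 10.19, 11.63 and 9.72 (probe at rn4 chr17:57244565-57244624). Deficient 3 was the highest of all 8 livers, and the other 3 deficient livers lay below every control. The difference was -0.72 ± 0.38 (SE) and did not pass, but without deficient 3 it was -1.18 ± 0.31 and did. Inhbc, the beta C subunit, was 10.41, 10.46, 10.42 and 10.7 in controls and 9.09, 10.71, 10.21 and 10.52 in deficient livers. A single liver, deficient 1, was more than 1 log2 unit below the rest. The difference of -0.36 ± 0.23 shrank to -0.02 ± 0.10 without it, and it passed at -0.68 without deficient 2 and at -0.70 without array 4.

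Gdf15 was dim, well above background in 3 controls and in all 4 deficient livers (probe at rn4 chr16:19313390-19313449). It read 8.22, 7.11, 7.69 and 6.96 in controls 1 to 4 and 7.11, 7.80, 7.81 and 7.45 in deficient animals 1 to 4. The deficient livers lay inside the wider control range, and both the highest and the lowest liver were controls. The difference of 0.05 ± 0.24 changed sign between arrays (-0.41, -0.58, 0.34 and 0.84) and between settings, being positive under 14 and negative under 9 of 23 alternatives.

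Angptl4 was 13.59, 13.78, 13.14 and 12.37 in controls 1 to 4 and 12.9, 12.88, 12.86 and 12.87 in deficient animals 1 to 4 (probe at rn4 chr7:16261624-16261683). Deficient livers sat inside the control range and close together. The difference of -0.34 ± 0.16 did not pass, but it was -0.56 and passed without control 4, the lowest control, and it passed at -0.53 without array 4. The SD over deficient livers was 0.019 against 0.63 in controls. That closeness depended on scaling between arrays, since the deficient SD was 0.32 and the control SD 0.48 when values were normalized within arrays only. Angptl6 was 11.13, 11.14, 10.68 and 10.65 in controls and 10.74, 10.33, 10.98 and 10.93 in deficient livers (probe at rn4 chr8:19900579-19900638). The groups overlapped, and the difference of -0.16 ± 0.13 did not pass under any of 24 alternatives.

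Sex was not used to choose the genes, so it was tested. With diet in the fit, limma called 0 of 14993 genes for sex (401 had an unadjusted p under 0.05), and 0 of the 9 genes here, of which 3 had an unadjusted p under 0.05. Those 3 were Fgf21, higher in males by 0.74 ± 0.23, Gdf15 by 0.55 ± 0.23 and Inhbe by 0.26 ± 0.10, with a limma adjusted p of 1 each. With 1 male control, these differences lean on few animals. Fgf21 in males was 10.14 in the control and 11.36 and 11.21 in the deficient livers. Females had 8.72, 8.32 and 8.24 in controls and 11.61 and 10.5 in deficient livers. The 3 female controls were below the male control, and also below every deficient liver of either sex. The diet by sex term passed in limma for 0 of the 9 genes, of which 2 had an unadjusted p under 0.05, and for 0 of all genes tested (1809 at that level). Those 2 were Fgf21, at -1.54 ± 0.43 (SE), and Inhbc, at 1.38 ± 0.53, each with a limma adjusted p of 0.411. The sex count rose to 7 of the 9 genes without deficient 1 and 2 without deficient 2, and was 0 in both cases when the array correlation estimated from 8 samples was kept.

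The partners of these hormones were looked at as 6 lists chosen for their roles, with earlier results of these data known. The lists are therefore given as a description, and nothing is read from the share that passed. In all, 83 of their genes were tested and 23 passed, 7 higher and 16 lower, which is 27.7% against 11.2% of all genes, and their median difference was -0.05 against 0.0095 over all genes. That count was 12 without control 1, 11 without control 2, 9 without control 3, 14 without control 4, 10 without deficient 4, 15 without array 1, 14 without array 2 and 7 without array 3.

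**Figure D4:**
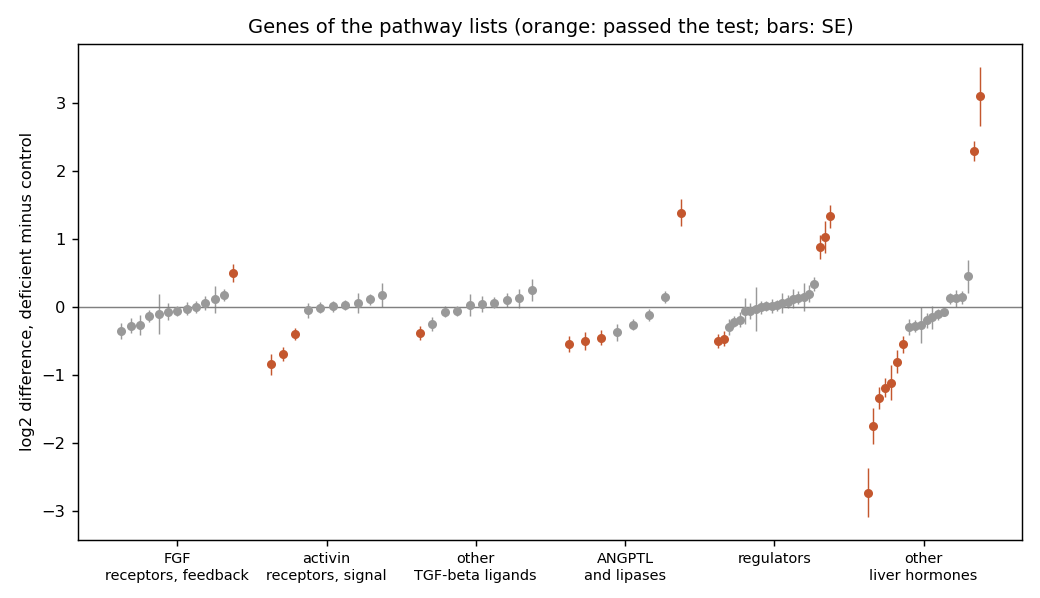
Deficient minus control difference in log2 normalized intensity (vertical axis) of each tested gene of the 6 lists, ordered by size within a list, with bars for the SE and orange for genes that passed the limma test. Medians lie between -0.32 and 0.04, the activin list holds Smad7 at -0.85 and Bambi at -0.69, and other liver hormones run from -2.73 for Hamp to 3.11 for Igfbp1.

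Of the FGF receptors and feedback genes 13 of 17 were tested, with a median of -0.06, and 1 passed. Egr1, an immediate early transcription factor downstream of growth factor receptors, was higher by 0.50 ± 0.13 (limma adjusted p = 0.0451). It passed in 3 of the 12 fits that leave out a liver or an array, and in 7 of all 24 alternatives, which include those fits. Fgfr4, the main FGF receptor of hepatocytes, was at -0.35 ± 0.12 (limma adjusted p = 0.0882) and Klb at -0.13 ± 0.09 (limma adjusted p = 0.365), neither past the threshold. Fgfr3 (-0.27), Spry1 (-0.27) and Spred1 (0.18), the last 2 feedback inhibitors of this pathway, did not pass either.

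Of the activin receptors and signal genes 10 of 16 were tested, with a median of -5e-04, and 3 passed, all lower. Bambi, a pseudoreceptor that blocks TGF-beta family signals, was 10.06, 10.36, 10.31 and 10.26 in controls 1 to 4 and 9.36, 9.38, 9.89 and 9.61 in deficient animals 1 to 4. Every deficient liver was below every control, and the difference was -0.69 ± 0.10 (limma adjusted p = 0.00539), which passed in all but 1 of those 12 fits. Smad7, an inhibitor that the pathway itself induces, was at -0.85 ± 0.16 (limma adjusted p = 0.0144), and Smurf2, a ubiquitin ligase that works with SMAD7, was at -0.40 ± 0.09 (limma adjusted p = 0.0226). These passed in 8 and 5 of the 12 fits, and in 17 and 13 of all 24 alternatives. Other inhibitors in the list did not pass, at 0.11 for Smurf1, 0.18 for Skil and 0.01 for Fstl3, which binds activins as follistatin does. Smad2 did not pass, at -0.05. Nor did Acvr2b (0.06) and Acvr1c (-0.01), the activin receptor genes tested. Fstl3, Acvr2b and Acvr1c were named after their values were seen. Of 15 other TGF-beta ligands 10 were tested and 1 passed. Gdf2, which encodes the liver hormone BMP9, was lower, at -0.38 ± 0.10 (limma adjusted p = 0.0456). It passed in 2 of the 12 fits and in 6 of all 24 alternatives. Bmp1, Bmp2, Bmp4, Bmp7 and Tgfb1 did not pass and lay between -0.25 and 0.24.

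Of the angiopoietin-like and lipase genes 8 of 13 were tested, with a median of -0.32, and 4 passed. Lpl, lipoprotein lipase, the enzyme that ANGPTL4 inhibits, was 9.14, 9.74, 9.36 and 8.56 in controls 1 to 4 and 11.66, 10.43, 9.97 and 10.3 in deficient animals 1 to 4. The groups did not overlap, and the difference was 1.39 ± 0.20 (limma adjusted p = 0.0052). Of the 6 adipocyte markers Plin1 and Lep were well above background in 0 of 8 livers, Adipoq and Retn in 1, and Cfd and Cidec in all 8, and the summed level of the list was 11.9 to 12.5 in controls and 12.1 to 12.5 in deficient livers. Skeletal muscle markers were high in deficient 3, where Lpl was 9.97. The part of either cell type in the Lpl difference was not tested. Lipc, hepatic lipase, was at -0.50 ± 0.13 (limma adjusted p = 0.0428), and Sel1l, which helps lipoprotein lipase leave the endoplasmic reticulum, at -0.54 ± 0.12 (limma adjusted p = 0.0227). Lpl passed in 11 of the 12 fits, but Lipc and Sel1l in 2 and 6. Over all 24 alternatives Lpl, Lipc and Sel1l passed in 22, 6 and 14. Pcsk6 (-0.26) and Angptl2 (-0.37) did not pass.

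Of the genes known to regulate these hormones 22 of 25 were tested, with a median of 0.02, and 5 passed. Atf3, a stress-induced transcription factor, was 7.42, 6.91, 7.08 and 7.30 in controls 1 to 4 and 8.86, 9.32, 8.17 and 7.69 in deficient animals 1 to 4. All deficient livers were above all controls, by 1.33 ± 0.17 on average (limma adjusted p = 0.00397), and Atf3 passed in all 12 fits. Ddit3, which encodes CHOP, another stress-induced factor, was at 0.88 ± 0.18 (limma adjusted p = 0.0183), with levels of 10.66, 10.16, 10.05 and 9.65 in controls and 11.9, 10.78, 10.61 and 10.76 in deficient livers, so deficient 3 lay just below control 1. Nr4a1, an immediate early nuclear receptor, was higher by 1.03 ± 0.23 (limma adjusted p = 0.027). Mlxipl, which encodes the glucose-sensing factor ChREBP, was at -0.50 ± 0.10 (limma adjusted p = 0.0196) and Nr1d1, a repressor of the circadian clock, at -0.47 ± 0.11 (limma adjusted p = 0.0345). Ddit3, Mlxipl, Nr4a1 and Nr1d1 passed in 8, 6, 5 and 4 of the 12 fits, and in 17, 14, 12 and 9 of all 24 alternatives. Ppargc1a, at 0.34 ± 0.10 (limma adjusted p = 0.0742), did not pass. Ppara (0.06), Atf4 (-0.0034) and Creb3l3 (0.02), transcription factors known to drive Fgf21 and named after their values were seen, did not pass either. These are transcript levels and say nothing of the activity of the factors.

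Of the other liver hormones 20 of 23 were tested, with a median of -0.23, and 9 passed, 2 higher and 7 lower. Igfbp1 and Igfbp2, which bind insulin-like growth factors, were higher, by 3.11 ± 0.44 (limma adjusted p = 0.00491) and 2.30 ± 0.15 (limma adjusted p = 0.000468). Igf1, the growth factor itself, was at -1.33 ± 0.16 (limma adjusted p = 0.00277), Hamp, the iron hormone hepcidin, at -2.73 ± 0.36 (limma adjusted p = 0.00431), and Fetub, a fetuin, at -1.19 ± 0.14 (limma adjusted p = 0.00286). These 5 passed in all 12 fits. Tsku, which encodes tsukushi, was at -1.75 ± 0.26 (limma adjusted p = 0.00603) and passed in 11, and in 22 of all 24 alternatives. The other 3 that fell, named after their values were seen, were Fgl1 (-0.80), Ahsg (-0.55) and Orm1 (-1.11). They passed in 5, 5 and 4 of the 12 fits, and in 14, 9 and 11 of all 24 alternatives. Of the 5 hepatocyte markers 3 also fell. Ttr, Serpina1 and Tf passed at -0.89, -0.59 and -1.01. Alb at -1.01 (limma adjusted p = 0.0514) and Apoa1 at 0.35 (limma adjusted p = 0.168) did not. The part of this in the falls of secreted proteins was not tested.

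Markers of other cells were as follows. Of the stellate cell markers Lrat passed at -0.67 and the other 5 did not, with summed levels of 13.0 to 13.9 in controls and 12.7 to 13.9 in deficient livers. Of 4 tested endothelial markers Kdr passed at -0.32, with summed levels of 13.9 to 14.2 and 13.6 to 13.9. No Kupffer cell, cholangiocyte, erythroid, skeletal muscle, exocrine pancreas or adipocyte marker passed. Of the exocrine pancreas list Prss1, Cela1, Pnlip and Cel were well above background in 0 of 8 livers, and Ctrb1 was in all 8.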

How the data were processed

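Liver RNA of 4 control and 4 deficient rats was hybridised on 4 Agilent 2-colour arrays of rn4 design. The deposited files hold spot intensities that the authors extracted with Feature Extraction, version 10.7.1.1 in the submitters' processing notes. The authors also deposited normalized intensities, made by steps not given in the sources used here. These served as an alternative, on a log2 scale computed here.

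Spots with a local background over 5 times their channel's median were left out. Signals were corrected by normexp (offset 50), normalized by loess and Aquantile, and averaged per probe. Probes well above background in at least 4 of 8 samples were kept, and the brightest stood for a gene. limma 3.58.1 in R 4.3.3 fitted diet and dye with the array as a random block (correlation 0.423), and p-values were Benjamini-Hochberg adjusted at 0.05 over 14993 genes. The fit was tested on data simulated under its own assumptions. Noise was normal, with the fitted variances, the same in both groups, 1 array correlation for all genes and no dye effect. Recovery was thus favoured by the design, and unequal spreads such as those of Fst and Angptl4 were not covered. It called 36 of 50 genes given a log2 difference of 0.5 (72%), and 49 of 50 at 1. It also called 13 genes given no difference, and found an array correlation of 0.489 where 0.423 was set. Replicate numbers follow the order of the samples and pair no animals. The few arrays limit the precision.

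The 9 genes, the lists and the local background limit were chosen with earlier results of these data known. Named are all 9, up to 6 genes of each list with the smallest p for diet, and the 5 genes most correlated with Fgf21 and with Fst. Another of the listed genes is not reported here. Promoters are RefSeq's (GRCr8). Alternatives covered background, scaling, filters, probes, blocks, sex and left-out livers and arrays.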

Additional observations from a re-analysis of the deposited data

Results flagged for a closer look

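Inhbc differed in opposite directions between the sexes. In males it was 10.41 in the control and 10.71 and 10.52 in the deficient livers, and in females it was 10.46, 10.42 and 10.7 in controls and 9.09 and 10.21 in deficient livers. The diet by sex term was 1.38 on the log2 scale (limma adjusted p = 0.411), so the difference did not pass, and there was 1 male control. Fgf21 had a larger term, -1.54 (limma adjusted p = 0.411), with differences of the same sign in both sexes. Of 22 groups of 4 values tested for a sample far from the others, 0 had one, where chance gives about 5% of groups.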

How the results depend on the processing

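Genes called for diet, 1682 in all, numbered 959 with high-background spots kept, 474 on within-array ratios, 403 without the array block, 844 without the dye term and 833 with sex in the fit. They numbered 935, 211 and 2907 without array 2, 3 and 4, and 389 to 3589 with 1 liver left out. Of the 9 hepatokine genes, 3 of which passed, 1 passed on ratios and without array 3, 6 without array 4, and 1 to 5 with 1 liver left out. Of the 83 listed genes, 23 of which passed, 15 passed with high-background spots kept, 9 on ratios, 7 without the array block, 13 without the dye term, 12 with sex in the fit, 15, 14 and 7 without array 1, 2 and 3, and 9 to 28 with 1 liver left out. For sex, 0 to 7 of the 9 genes passed with 1 liver left out. The 2 livers that raised this count, deficient 1 (7) and deficient 2 (2), gave 0 with the correlation of the full set of 8 kept, an alternative chosen after seeing the data. The causes were otherwise not tested. Fits that leave some samples out also hold fewer samples, and the part of this was not tested either. No value of a single gene that had passed changed sign. The fits for sex on within-array ratios and without array 1 were not run, and 3 other fits used that full-set correlation. Replicate numbers pair no animals, but each array pairs a control with a deficient animal, and the within-array ratios above are the fit on those pairs. Dim signal limits Gdf15, which was not well above background in 1 control.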

Other observations

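The genes with a symbol whose log2 levels were most like those of Fgf21 over the 8 livers were Lamtor4 (Pearson r = 0.974), Slc4a4 (0.973), C19h16orf74 (0.969), Fbxo42 (0.967) and Kcmf1 (0.966). For Fst they were Renbp (0.985), Acot12 (0.969), Bbs2 (0.969), Cpt1a (0.968) and Aqp3 (0.967). These are a description over 8 samples in 2 groups that share the diet difference and, in pairs, an array. After the group means were taken out, r was 0.84 to 0.916 for the 5 genes most like Fgf21 and 0.917 to 0.97 for those most like Fst. All but Acot12 passed the diet threshold, which 11.2% of all genes did. They were picked among 10635 tested genes with a symbol for likeness to genes that differ by diet. Nothing is therefore read from their passing or from these values of r. Cpt1a, the enzyme that admits long-chain fatty acids into mitochondria, was higher in deficient livers by 1.46, and Aqp3, a glycerol channel, by 2.68.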
